A study of Mus musculus with 6 samples.

Results

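The transcripts of 38 genes of the ATF4 pathway and of the endoplasmic reticulum (ER) stress response were followed in the retinal pigmented epithelium (RPE), the pigmented layer that lies against the photoreceptors, of E15.5 mouse embryos. The genes were listed by name: 24 form the ATF4 branch (amino acid metabolism, transcription factors and growth control), 10 form the ER branch (chaperones and their regulators) and 4 encode sensors that start the responses. A probe set annotated with 1 gene symbol was found for 37 of them, among 19938 genes measured in that way, and the brightest such probe set stood for each gene. *Pycr1*, an enzyme of proline synthesis, had no such probe set and has no value here. The study asked what the transcription factor PAX6 does in the RPE. It compared 3 arrays labelled control, from *Pax6loxP/loxP* embryos, with 3 labelled mutant, from *Pax6loxP/loxP;DctCre* embryos, all C57BL/6J, and the controls were littermates. Both groups thus carry the floxed *Pax6* alleles and differ by the Cre transgene, driven by the *Dct* promoter, which removes the exons for the paired domain and leaves a shortened *Pax6* transcript. Dissected RPE of several embryos was combined by strength of pigmentation, a tube being 1 biological repeat, and 300 ng of RNA went on each Affymetrix Mouse Gene 1.0 ST array.

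When amino acids run short, or when unfolded proteins build up in the ER, kinases phosphorylate the initiation factor eIF2. General translation then slows while *Atf4* mRNA is translated better, and ATF4 protein turns on genes that make, import and charge amino acids, followed by *Ddit3*, which encodes CHOP. In the ER, the sensors IRE1, PERK and ATF6 watch the folding of secreted and membrane proteins: PERK is an eIF2 kinase, IRE1 splices *Xbp1* mRNA, and cleaved ATF6 and spliced XBP1 turn on the chaperones. Arrays of this kind read transcripts, so neither the translation of *Atf4*, the splicing of *Xbp1* nor the cleavage of ATF6 was measured, and the genes they act on serve as the readout.

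The names of the groups were not settled by the files. The authors deposited, beside the values of each array, a table of 100 entries with group means. Of 80 entries that could be matched by symbol and RefSeq number, 0 matched the arrays as labelled and 80 matched once the names of the groups were exchanged, within 0.1 on the log2 scale. All signed values below are mutant-labelled minus control-labelled arrays, a direction opposite to that of the authors' table, and with the names exchanged every sign turns. None of the 37 genes with a probe set is in that table. *Pax6* itself had log2 signals of 9.15, 9.02 and 9.22 under the control label and 8.998, 8.97 and 8.74 under the mutant label. Its difference of -0.23 (SE 0.09, adjusted p = 0.73 by limma) was a partial check only, since the shortened transcript still binds probes. Tubes had been combined by pigmentation, and the pigment genes *Tyrp1*, *Pmel*, *Tyr* and *Dct* were higher under the mutant label. Their differences were 0.94, 0.68, 0.67 and 0.21, and of these *Tyrp1* alone passed an adjusted p of 0.05 by limma. The names of the groups thus stayed unsettled.

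Markers showed a mixed tissue. The pigment genes *Tyrp1*, *Pmel* and *Dct* were at 9.27 or more on each array, whereas *Rpe65*, *Best1* and *Lrat*, genes of the mature RPE, lay below the array median on all 6. Of 12 RPE markers 4 passed the test between the groups: *Rrh*, *Rlbp1* and *Tyrp1* were higher under the mutant label by 1.35, 1.001 and 0.94 (adjusted p = 0.0030, 0.010 and 0.020 by limma), and *Ttr* differed by -2.10 (adjusted p = 0.00088). *Pmel* and *Tyr* differed by 0.68 and 0.67 without passing (adjusted p = 0.063 and 0.34). The summed log2 signal of the 12 lay between 85.3 and 89.3 under the control label and between 89.7 and 90.7 under the mutant label, without overlap. *Col1a1*, a collagen of mesenchyme, was between 12.33 and 12.51. The 7 markers of neurons that could be measured had a mean log2 signal of 6.88, 5.20 and 6.15 on control replicates 1, 2 and 3 and 6.61, 6.05 and 5.11 on mutant replicates 1, 2 and 3, so that it varied within both groups and overlapped between them. In such bulk samples, fewer cells of a type and less RNA per cell cannot be told apart. Array medians were between 4.86 and 4.93.

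No gene of the ATF4 or ER stress lists passed the test between the groups. Of the 37 measured, 0 passed an adjusted p of 0.05 by limma, where 0.363% of the 23410 named probe sets did (0.282% higher and 0.0812% lower). At an unadjusted p under 0.05 there were 2 (5.41%), *Ddit4* and *Atf3*, both lower on the arrays labelled mutant, against 6.07% of named probe sets. By the two-tailed t-test that the methods name there were 3 at that level, beside 5.63% of named probe sets. After adjustment 0 of the 37 passed, as did 0 of the 23410, so that count says nothing about these genes. In 5 of the 37 the arrays of the groups did not overlap (13.5%), against 11.0% of named probe sets: *Atf4* and *Hsp90b1* were higher, and *Atf3*, *Ddit4* and *Gpt2* lower, on the arrays labelled mutant.

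The differences were small as well as uncalled. They ran from -0.18 for *Ddit4* to 0.21 for *Sdf2l1* on the log2 scale, which is 0.885 to 1.16 as a fold. Their median was 0.03 and their median size without sign was 0.056, beside 0.055 for all 19938 genes. The 95% confidence interval lay within 0.5 of zero on the log2 scale for 36 of the 37 (97.3%), beside 95.7% of all genes. The exception was *Sdf2l1*, whose interval ended at 0.51. Across the 37 intervals the bounds reached from -0.36 to 0.51, so a larger average difference in array signal lies outside each gene's interval. Each interval was made for 1 gene alone, with 3 arrays per group setting the precision. The tissue was mixed and some signals were near the array median, so the intervals do not bound a change inside RPE cells.

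**Figure D1:**
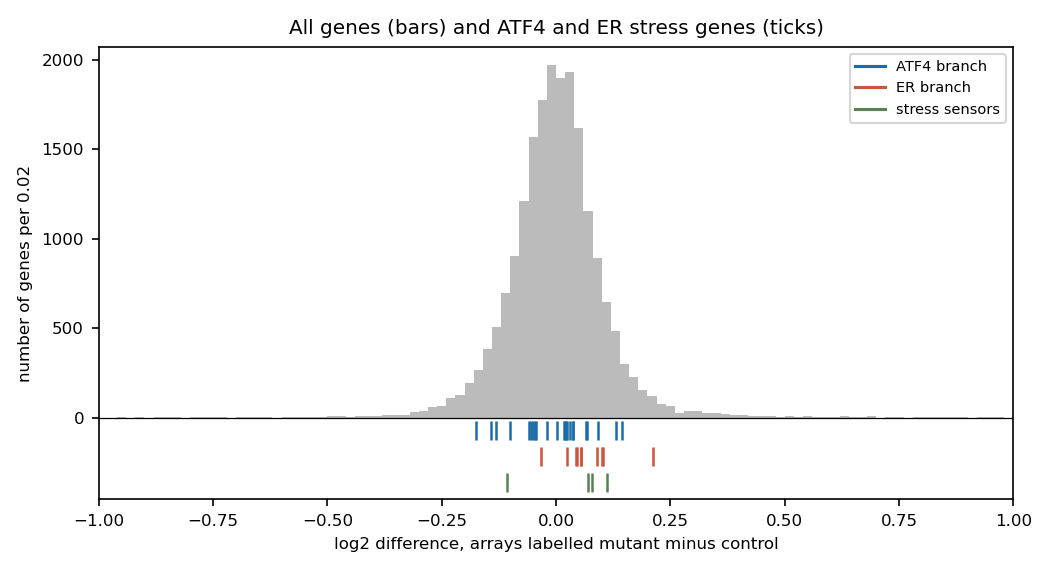
Number of genes (bars, per 0.02 of log2 difference between mutant-labelled and control-labelled arrays) over all 19938 genes, with ticks below for each ATF4 branch, ER branch and sensor gene. The 37 genes lie between -0.18 and 0.21 near the middle of the distribution, and 27 genes of the whole set lie outside the plotted range of 1 on either side.

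Short stretches of promoter show which of the listed genes carry the sequences through which the pathways are known to act. RefSeq windows on GRCm38.p6, from 250 bases before to 50 bases after the start site, were at hand for 34 of the 38 genes. The first motif was the composite ATF4-C/EBP element, spelled TGATGNAA and searched on both strands, which 3.97% of 32851 windows hold. Of 22 ATF4 branch genes with a window, 7 held it: *Asns*, *Atf3*, *Chac1*, *Nupr1*, *Pycr1*, *Trib3* and *Vldlr*. It was also in *Herpud1* of the ER branch, in 0 of 3 sensors, and, of 6 amino acid transporters, in *Slc1a4* and *Slc7a11*, the latter with a pair of overlapping stretches on opposite strands. Those upstream of the genes on which the results turn are given 5′ to 3′ on the strand that reads the motif, with the motif in capitals and 30 bases each.
*Asns*, chr6:7693214-7693243, minus strand: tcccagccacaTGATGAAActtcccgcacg
*Atf3*, chr1:191183425-191183454, plus strand: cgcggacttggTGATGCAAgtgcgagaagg
*Chac1*, chr2:119351038-119351067, minus strand: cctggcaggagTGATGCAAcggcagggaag
*Nupr1*, chr7:126625562-126625591, plus strand: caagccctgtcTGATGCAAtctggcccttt
*Vldlr*, chr19:27216809-27216838, minus strand: gctaggagcgcTGATGCAActattgctgct
*Herpud1*, chr8:94386306-94386335, minus strand: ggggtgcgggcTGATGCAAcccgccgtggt
*Slc7a11*, first, chr3:50443642-50443671, plus strand: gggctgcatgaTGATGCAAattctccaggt
*Slc7a11*, second, chr3:50443661-50443690, minus strand: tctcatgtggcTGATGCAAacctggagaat

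Genes that hold the motif covered a wide span of array differences. The 6 genes of the ATF4 branch that hold it and have a probe set differed by -0.13 to 0.07 (median -0.02), and *Herpud1* by 0.05. *Slc1a4*, with the same 8 bases as *Slc7a11*, differed by 0.01, and *Slc7a11* by 2.57. A match is a string of letters and not a measured site of binding.

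The second motif was the ER stress element, CCAAT and CCACG separated by 9 bases, on both strands, which 0.119% of the windows hold. It was in 4 of the 9 ER branch genes with a window, in 0 of 22 of the ATF4 branch and in 0 of 3 sensors. These 4 genes encode chaperones or ER proteins, and their elements lie upstream of the start.
*Hspa5*, chr2:34772020-34772049, plus strand: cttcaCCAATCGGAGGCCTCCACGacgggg
*Hsp90b1*, nearer, chr10:86705528-86705557, plus strand: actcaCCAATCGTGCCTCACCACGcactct
*Hsp90b1*, farther, chr10:86705632-86705661, minus strand: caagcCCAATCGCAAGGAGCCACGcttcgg
*Dnajc3*, chr14:118937822-118937851, plus strand: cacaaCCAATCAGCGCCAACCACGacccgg
*Creld2*, chr15:88819514-88819543, minus strand: gtggaCCAATTGAGGCTCGCCACGagaagc

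Between the groups these 4 genes differed by 0.02 to 0.09 on the log2 scale. Another string, the unfolded protein response element TGACGTG, on both strands, is in 2.01% of windows and, among the listed genes with a window, in that of *Hspa5*.

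None of the transcription factors of the ATF4 branch passed the test. *Atf4*, the regulator of the branch, had log2 signals of 7.41, 7.39 and 7.30 under the control label and 7.63, 7.42 and 7.48 under the mutant label. The groups did not overlap, yet the lowest array labelled mutant lay just above the highest labelled control. The difference was 0.14 (SE 0.07, 95% confidence interval -0.02 to 0.31, adjusted p = 0.88). *Ddit3*, which encodes the death-promoting factor CHOP, read 5.15, 5.10 and 4.94 against 5.02, 5.03 and 5.23. Its highest and its lowest array thus belonged to opposite groups and the ranges crossed, with a difference of 0.03 (SE 0.08, interval -0.16 to 0.22, adjusted p = 0.99). *Atf3*, a stress-induced factor downstream of ATF4, read 5.22, 5.27 and 5.32 against 5.11, 5.13 and 5.18. All of the arrays labelled mutant were below those labelled control, by -0.13 on average (SE 0.06, unadjusted p = 0.047, adjusted p = 0.82).

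*Cebpb*, a C/EBP factor that pairs with ATF4, had signals of 5.58, 5.56 and 5.56 against 5.49, 5.67 and 5.60. The arrays labelled mutant spanned those labelled control, and the difference was 0.02 (SE 0.06, adjusted p = 0.99). *Trib3*, the pseudokinase that damps ATF4 activity, was below the array median on all 6 arrays, at 4.58, 4.27 and 4.68 against 4.50, 4.37 and 4.34. At that low signal the ranges overlapped, with a difference of -0.10 (SE 0.11, interval -0.35 to 0.15, adjusted p = 0.99). The differences of *Atf5*, *Cebpg* and *Nupr1*, a trio of stress-linked transcription regulators, were -0.06, -0.05 and 0.07, with overlapping arrays.

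**Figure D2:**
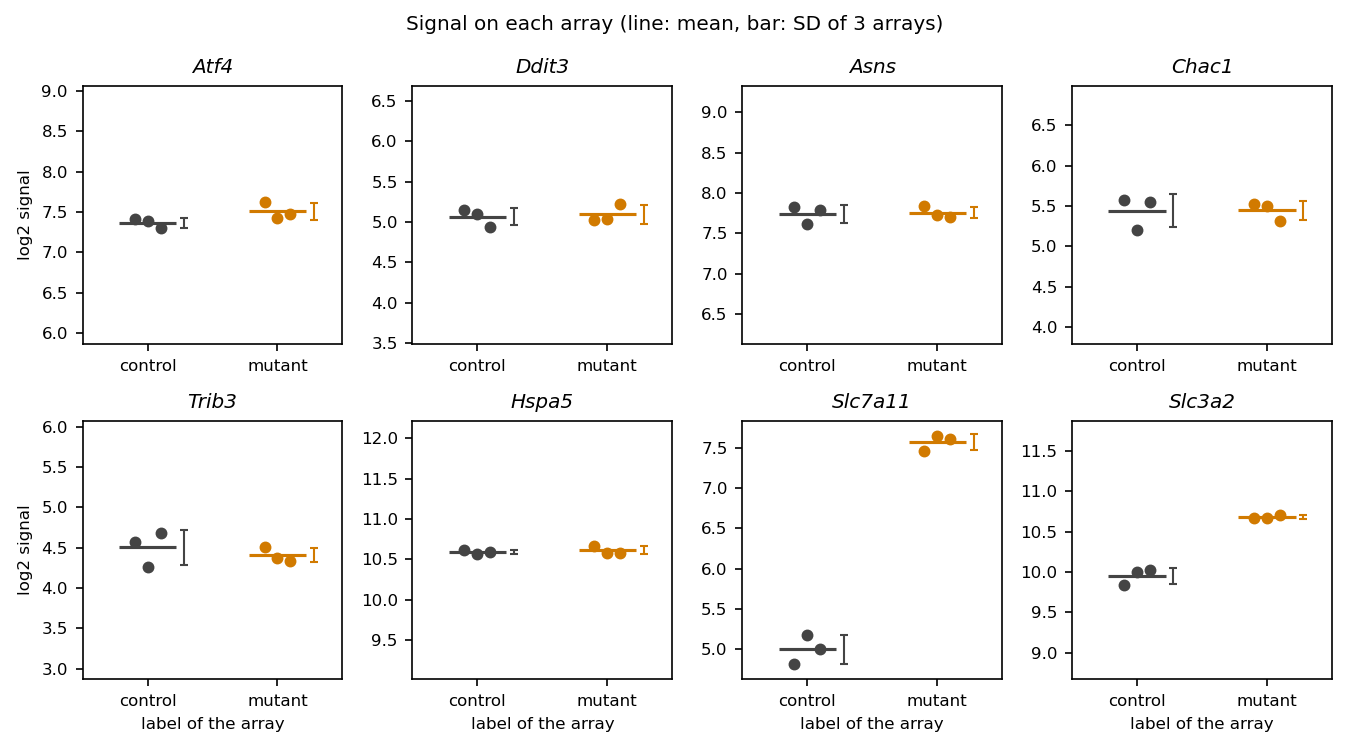
Log2 signal on each of the 6 arrays for *Atf4*, *Ddit3*, *Asns*, *Chac1*, *Trib3*, *Hspa5*, *Slc7a11* and *Slc3a2*, a point per array, by label, with the mean as a line and the SD of 3 arrays as a bar, and the same axis span in each panel. The points of the groups overlap for *Ddit3*, *Asns*, *Chac1*, *Trib3* and *Hspa5*, lie close together for *Atf4*, and are far apart for *Slc7a11* (difference 2.57).

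No gene of amino acid synthesis passed the test. *Asns*, asparagine synthetase and the classical target of ATF4, had log2 signals of 7.82, 7.61 and 7.79 under the control label and 7.84, 7.73 and 7.71 under the mutant label. The ranges lay over each other, and the difference was 0.02 (SE 0.07, interval -0.15 to 0.19, adjusted p = 0.99). The serine pathway begins with *Phgdh*, which read 7.67, 7.93 and 7.53 against 7.93, 7.66 and 7.74. Its highest arrays, one in each group, were at nearly the same signal, and the difference was 0.07 (SE 0.11, interval -0.20 to 0.33, adjusted p = 0.99). *Psat1*, the next enzyme, read 9.44, 9.51 and 9.59 against 9.37, 9.47 and 9.55. Again the arrays interleaved, with a difference of -0.05 (SE 0.07, interval -0.21 to 0.11, adjusted p = 0.99).

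The remaining enzymes had small differences. *Psph*, which finishes serine synthesis, differed by 0.09, and the mitochondrial one-carbon enzymes *Shmt2* and *Mthfd2* by -0.02 and 0.04. *Aldh18a1*, of proline synthesis, differed by 0.02, and *Cth*, which makes cysteine from cystathionine, by 0.13 with an interval of -0.15 to 0.41. All of these had overlapping arrays. *Gpt2*, the mitochondrial alanine transaminase, was the enzyme whose groups did not overlap, at 6.31, 6.41 and 6.50 against 6.27, 6.21 and 6.30, and it was picked after its values were seen. It was lower on the arrays labelled mutant by -0.14 (SE 0.07, adjusted p = 0.86), a gap not past the threshold.

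*Chac1*, which breaks down glutathione and is among the most sensitive ATF4 targets in cultured cells, had signals of 5.57, 5.20 and 5.56 against 5.52, 5.51 and 5.31. Control replicate 2 was its lowest array and mutant replicate 3 the next, so the spread lay inside the groups. The difference was 0.0021 (SE 0.11, interval -0.25 to 0.26, adjusted p = 0.9995).

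Of the genes of growth control, *Ddit4* had the smallest p of all 37. It encodes REDD1, an inhibitor of mTORC1 that stress and low oxygen induce. Its signals were 7.37, 7.47 and 7.42 under the control label and 7.22, 7.25 and 7.26 under the mutant label. Every array labelled mutant was lower and the spread within groups was small, with a difference of -0.18 (SE 0.06, interval -0.30 to -0.05, unadjusted p = 0.013), which did not survive adjustment (adjusted p = 0.55 by limma). *Vegfa*, a secreted angiogenic factor and a member of a hypoxia list, was at 7.94, 7.98 and 8.01 against 7.74, 7.84 and 7.80. It too was lower on each array labelled mutant, by -0.18 (SE 0.06, unadjusted p = 0.012, adjusted p = 0.52). Of the 10 hypoxia genes, 0 passed the adjusted threshold, beside 0.363% of named probe sets, and their median was -0.04. *Slc2a1*, the glucose transporter, was at 0.17 in the other direction (adjusted p = 0.78).

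The other growth and secreted genes did not pass the test either. *Sesn2*, a sensor of leucine, differed by 0.04 and *Eif4ebp1*, the translation repressor, by 0.03. *Stc2*, a secreted glycoprotein, differed by -0.05. *Vldlr*, a lipoprotein receptor, had the widest interval of the branch, -0.36 to 0.28. Its replicate 1 was the highest array in both groups, at 7.13 against 6.80 and 6.91 in the control labels and at 7.21 against 6.75 and 6.75 in the mutant labels. Over the whole ATF4 branch, 13 of 23 differences were above 0 and 10 below, with a median of 0.02.

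The abundant chaperones *Hspa5* and *Hsp90b1* varied little over the 6 arrays. *Hspa5*, which encodes BiP, the chaperone that holds the sensors inactive, had log2 signals of 10.62, 10.56 and 10.59 under the control label and 10.67, 10.58 and 10.58 under the mutant label. All 6 arrays fell within 0.11 of each other. The difference was 0.02 (SE 0.06, interval -0.10 to 0.15, adjusted p = 0.99). *Hsp90b1*, encoding GRP94, read 10.95, 10.94 and 10.91 against 10.99, 10.96 and 10.98. Its groups did not overlap, but its whole range of 0.08 was the smallest of the 37 genes and the difference was 0.04 (SE 0.05, interval -0.07 to 0.16, adjusted p = 0.99).

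The regulators varied more between arrays. *Xbp1*, the factor that IRE1 activates by splicing, read 8.89, 8.69 and 8.96 against 8.95, 8.88 and 9.02. Control replicate 2 was the low array and the rest overlapped, with a difference of 0.10 (SE 0.08, interval -0.09 to 0.29, adjusted p = 0.97). *Dnajb9*, a cochaperone of BiP and an XBP1 target, read 7.08, 6.90 and 7.29 against 7.36, 7.06 and 7.15. Its ranges also crossed, with a difference of 0.10 (SE 0.11, interval -0.16 to 0.37, adjusted p = 0.99). *Herpud1*, of ER-associated degradation, read 8.59, 8.37 and 8.51 against 8.50, 8.46 and 8.63. Here too control replicate 2 was lowest, and the difference was 0.05 (SE 0.08, interval -0.13 to 0.22, adjusted p = 0.99).

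*Sdf2l1*, part of an ER chaperone complex, had the largest difference of all 37 genes and also the widest range. Its signals were 6.76, 6.42 and 6.33 against 6.93, 6.62 and 6.60, so that control replicate 1 was above 2 of the arrays labelled mutant. The difference was 0.21 (SE 0.13, interval -0.09 to 0.51, adjusted p = 0.93). The cochaperone *Dnajc3* differed by 0.06, *Creld2*, a secreted ER stress gene, by 0.09, and *Hyou1*, a large chaperone of the HSP70 family, by 0.05. *Pdia4*, a disulfide isomerase, was the gene below 0, at -0.03, while a second and dimmer probe set of it gave 0.15.

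Of the 10 ER branch genes, 9 were therefore above 0 (90%), with a median of 0.06, beside 49.6% of all genes and their median near 0. None of the 10 passed the test, and their smallest adjusted p was 0.93. The genes share arrays and are not independent, so this count was not tested. It was 8 when control replicate 2, or either of mutant replicates 1 and 3, was left out, and 9 when any other array was. The median was 0.086 without control replicate 1, 0.033 without control replicate 2 and 0.036 without mutant replicate 1. In a wider list of 22 other genes of ER folding and degradation, 15 were above 0 and the median was 0.02. Of these 22, 0 passed, beside 0.363% of named probe sets. The mean log2 signal of that wider list was between 8.33 and 8.35 under the control label and between 8.37 and 8.39 under the mutant label, without overlap. That of the ER branch did overlap, at 8.82, 8.72 and 8.78 under the control label and 8.90, 8.79 and 8.83 under the mutant label. The groups did not overlap in 4 of the 22 (18.2%), beside 11.4% of all genes. These were *Pdia3*, *Pdia6*, *P4hb* and *Creb3l1*, all higher under the mutant label, and neither the means nor this count was tested. By limma, *Creb3l1*, an ER-anchored transcription factor of secretory cells, was the 1 gene there at an unadjusted p under 0.05, with a difference of 0.26 (adjusted p = 0.59), and by the t-test of the methods there were 3 of 22, beside 5.63% of named probe sets.

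None of the sensors passed the test. *Eif2ak3*, which encodes PERK, had log2 signals of 7.83, 7.62 and 7.86 under the control label and 7.94, 7.78 and 7.91 under the mutant label. Control replicate 2 was again lowest, and the difference was 0.11 (SE 0.08, interval -0.08 to 0.30, adjusted p = 0.97). *Ern1*, which encodes IRE1, read 6.05, 6.28 and 6.18 against 6.22, 6.24 and 6.26. The arrays labelled mutant sat inside the control range, at a difference of 0.07 (SE 0.07, interval -0.09 to 0.23, adjusted p = 0.99). *Atf6* read 6.81, 7.12 and 6.88 against 6.81, 6.82 and 6.86, and it was the sensor below 0. Control replicate 2 stood above the rest, and the difference was -0.11 (SE 0.09, interval -0.31 to 0.09, adjusted p = 0.97). *Eif2ak4*, which encodes GCN2, the sensor of uncharged tRNA, differed by 0.08 with overlapping arrays.

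**Figure D3:**
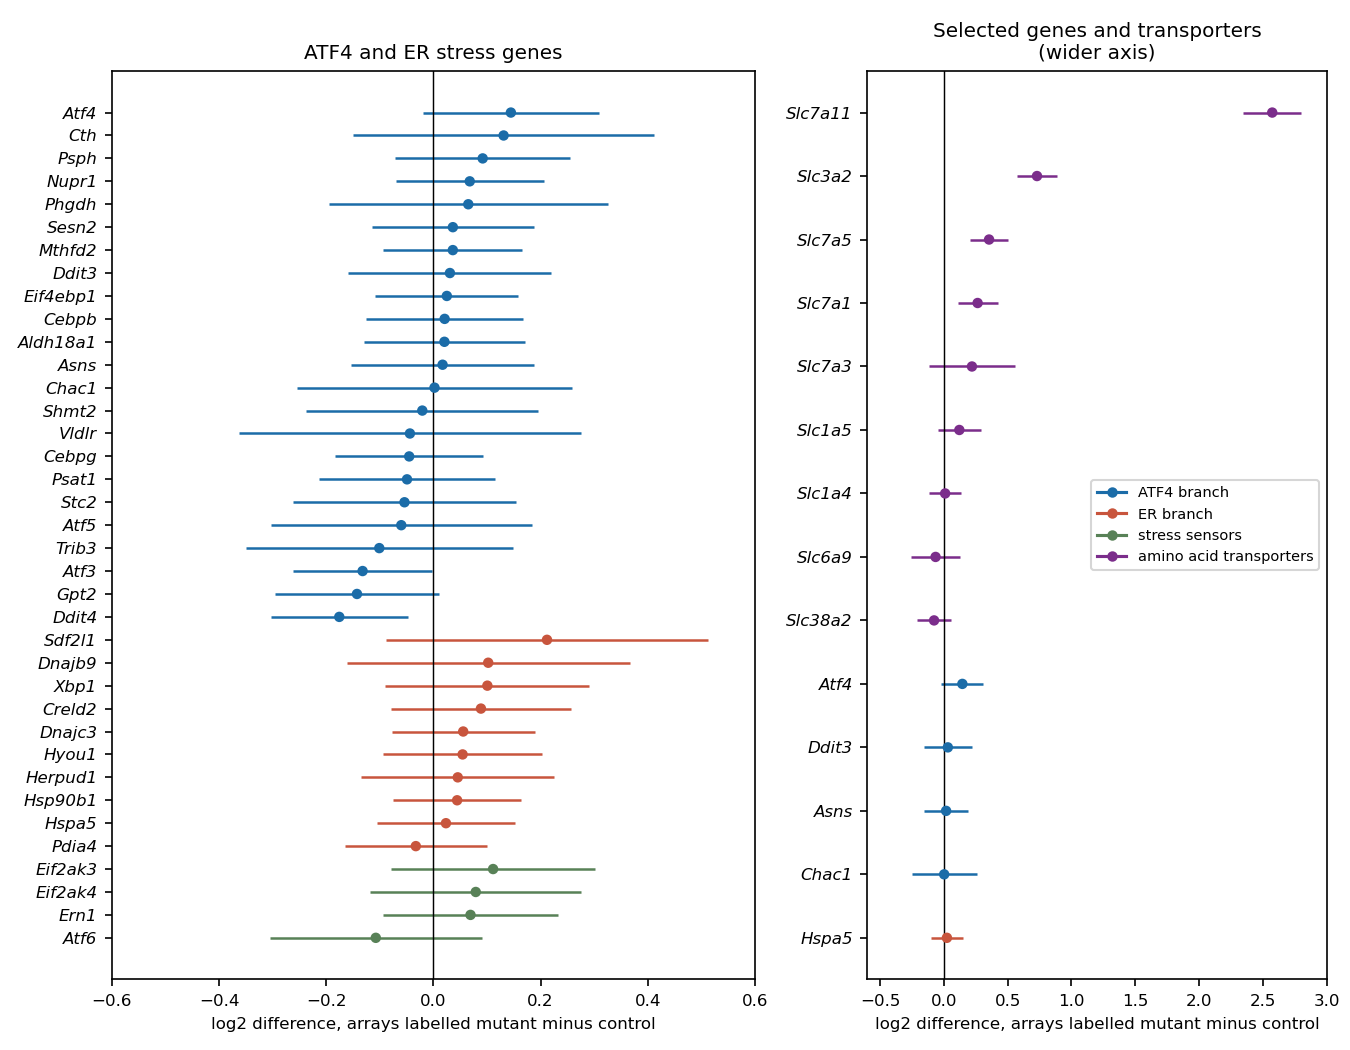
Log2 difference with its 95% confidence interval for each of the 37 genes in the left panel, by branch, and for the amino acid transporters beside selected genes in the right panel, on a wider axis. The intervals of the 37 genes reach from -0.36 to 0.51, whereas those of *Slc7a11* and *Slc3a2* start at 2.35 and 0.58.

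Variation inside the groups was large beside the differences between them. The median SD of the 37 genes was 0.107 under the control label and 0.086 under the mutant label, beside 0.089 and 0.073 for all genes. In the ER branch, replicate 1 was the highest array for 6 of 10 genes in the control labels and for 7 of 10 in the mutant labels, and for 5 it was so in both. Mutant replicate 2 was the lowest of its group for 8 of the 10. The ATF4 branch was more divided, with replicate 1 highest in both groups for 8 of 23 genes and replicate 3 for 6.

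The order of the neuron markers, replicate 1 above 3 above 2 in the control labels and 1 above 2 above 3 in the mutant labels, was shared by 4 of the 37 genes in both groups (10.8%), beside 5.11% of all 19938 genes. These were *Atf5*, *Asns*, *Chac1* and *Shmt2*, and all 4 had a difference between the groups within 0.1 of zero. The reverse order in both groups was found for *Ddit4*, *Ern1*, *Eif2ak4* and *Atf6* (10.8%, beside 4.89% of all genes). The part of neural tissue in these values was not tested. With the mean of the neuron markers as a covariate in the fit, an alternative chosen after the values were seen, 0 of the 37 genes passed and *Ddit4* was at an adjusted p of 0.41.

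**Figure D4:**
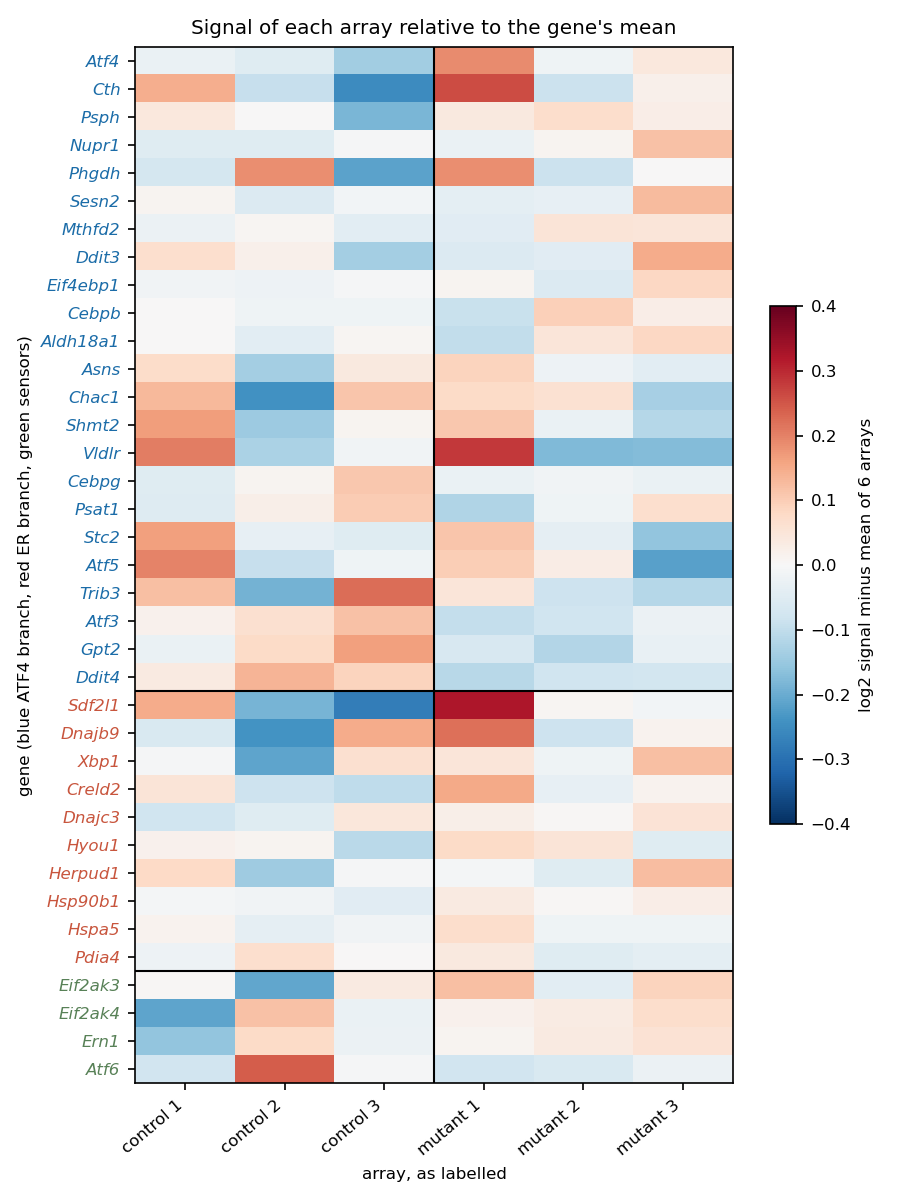
Log2 signal of each array minus the mean of the 6 arrays for each of the 37 genes (rows, by branch), arrays in columns by label, in colour from blue (below the mean) to red (above it). No block of either label stands out, and *Sdf2l1*, with the widest range (0.60), is highest on replicate 1 under both labels.

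Of 9 amino acid transporters linked to ATF4, 2 passed the adjusted threshold, both higher on the arrays labelled mutant, and 7 did not. The list was chosen with earlier results known and both genes are in the authors' table, so nothing is read from that count beside the 0.282% of named probe sets called higher. *Slc7a11*, the cystine/glutamate exchanger xCT, had log2 signals of 4.81, 5.17 and 5.01 under the control label and 7.46, 7.65 and 7.61 under the mutant label. The groups were far apart, with a difference of 2.57 (SE 0.10, interval 2.35 to 2.80, adjusted p = 7.0e-05), a fold of 5.95. The signals under the control label were close to the array medians, and below the median on 1 array, so that fold depends on how the low signals were background-corrected, which is not known. Its partner chain *Slc3a2* read 9.84, 10.005 and 10.02 against 10.67, 10.67 and 10.71. It was higher by 0.73 (SE 0.07, interval 0.58 to 0.88, adjusted p = 0.0046), so both intervals lie above those of all 37 stress genes. With the group names exchanged, as in the authors' table, both would be lower in the mutant. The RPE markers named above also differed between the labels, and their part in these values was not tested.

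The other transporters graded down from these. *Slc7a5*, which also pairs with *Slc3a2* and carries large neutral amino acids, was picked after its values were seen, at 8.31, 8.36 and 8.37 against 8.81, 8.67 and 8.63. Its groups did not overlap and the difference was 0.35 (SE 0.06, adjusted p = 0.11), not past the threshold. *Slc7a1*, the cationic transporter, likewise picked after its values were seen, was at 0.26 (adjusted p = 0.35). *Slc7a3*, *Slc1a5*, *Slc1a4*, *Slc6a9* and *Slc38a2* had differences of 0.22, 0.12, 0.01, -0.07 and -0.08.

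*Slc7a11* is also a target of NRF2, the regulator of antioxidant genes, and in a list of 8 such targets it and *Nqo1* passed. That list too was chosen with earlier results known, and both genes are in the authors' table. Nothing is therefore read from the count beside the 0.282% of named probe sets called higher. *Nqo1*, a quinone reductase, read 4.99, 5.33 and 5.31 against 6.42, 6.44 and 6.51, higher by 1.25 (SE 0.10, adjusted p = 0.0021). The other 6 genes of that list did not pass, with differences between -0.09 and 0.09. Whether either pathway moves with *Slc7a11* was not tested.

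Other lists next to the pathway held no calls, beside 0.363% of named probe sets. At that share, 0 calls in lists this short say little. By limma, 6.07% of named probe sets had an unadjusted p under 0.05. Of 18 aminoacyl-tRNA synthetase genes, many of them ATF4 targets, 0 passed the adjusted threshold and 0 an unadjusted p under 0.05, and their differences lay between -0.07 and 0.09. Of 11 genes of the eIF2 cycle, 0 passed either. Among 8 genes of the cytosolic heat shock response 0 passed, with *Hspb1*, a small heat shock protein, at 0.30 (adjusted p = 0.57). In a list of 12 immediate early genes, which handling of tissue can raise, 0 passed either threshold by limma, and 1 of 12 had an unadjusted p under 0.05 by the t-test of the methods, beside 5.63% of named probe sets. Of 9 p53 targets 0 passed, with *Zmat3*, an RNA-binding growth inhibitor, at 0.30 (adjusted p = 0.61) and *Ei24*, an ER protein, at 0.18 (adjusted p = 0.68).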

How the data were processed

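Labels gave the group and replicate number of the 6 arrays. The authors deposited a table of log2 signals for 35556 probe sets, normalized across arrays, and a second table of 100 entries, of which only the group means of log2 signal were used, not its p-values, ratios and fold changes. Partek appears in the submitters' processing notes, while how background was corrected and probes were combined, and the software's version, is not given in the sources used here. A platform annotation paired 23410 probe sets with symbols, 21789 with 1, and those with several were not used to name genes. Groups were compared with limma 3.58.1 (lmFit, eBayes) in R 4.3.3 over these 23410, without covariates, with Benjamini-Hochberg adjustment at 0.05. The script was tested on simulated data. Values on every array were set for 17 genes by role and for others of the 37 at an unadjusted p under 0.05. Each other pathway list names its called genes, or else up to 2 with the smallest unadjusted p under 0.05, by their differences or with array values. Marker genes and further array values are outside this rule and were chosen after the values were seen. The 38 genes, the lists and tests were chosen with earlier results of these data known. Alternatives covered the probe sets tested, dim probe sets, variance model, array weights, scaling, probe set rule, test, pairing and each array left out. Depth does not apply to arrays, and their number limits the precision.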

Additional observations from a re-analysis of the deposited data

How the results depend on the processing

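Under all 16 alternatives 0 of the 37 genes passed, the smallest adjusted p being 0.36, with differences between -0.22 and 0.34. Differences near 0 changed sign for 4 genes under other settings and for 15 when an array was left out. Named probe sets called higher and lower numbered 66 and 19. They were 35 and 6 with unnamed probe sets included and 0 and 0 by the methods' t-test, and the lower count was 37 with the neuron markers as a covariate, an alternative chosen after the values were seen. Leaving out 1 array gave 23 to 54 higher and 3 to 31 lower. The fewest higher came without mutant replicate 2, and the lower count was 5 without control replicate 2 and 3 without control replicate 3, as it was without either mutant replicate 2 or 3. The ATF4 branch median of 0.02 ranged from -0.046 to 0.034 with an array left out, being -0.046 without control replicate 2 and -0.01 without mutant replicate 1. *Pdia4* turned to 0.059 with the mean of its probe sets. *Slc7a11*, *Slc3a2* and *Nqo1* lost their calls under the t-test (adjusted p = 0.13, 0.24 and 0.24), and *Slc7a5* passed with a trended and robust variance (adjusted p = 0.034). The cause was not tested. Whether replicate numbers pair the arrays was not settled. The correlations of deviations were 0.37, -0.06 and 0.07 for replicates 1, 2 and 3. Control and mutant replicate 1 were each other's best match, whereas control replicate 2 was closest to mutant replicate 3 and mutant replicate 2 to control replicate 1. With replicate number as a block, 63 named probe sets were higher, 14 lower and 0 of the 37 genes passed. In that fit *Sdf2l1* had an unadjusted p of 0.012 (adjusted p = 0.48 by limma). Signal at or near the array median limits what could be seen. *Trib3* was below it on all 6 arrays. The lowest arrays of *Ddit3*, *Stc2*, *Atf3* and *Chac1*, at 4.94, 4.99, 5.11 and 5.20, lay not far above medians of 4.86 to 4.93. For these genes a small difference in signal says less about the transcript.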
